A study of Mus musculus with 2 samples.

Results

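Myoblast fusion and adhesion genes are described here through 8 genes of the mouse: Mymk, Mymx, Cdh15, Cdon, Myof, Dysf, Ncam1 and Itga7. They were taken by symbol from the 55487 genes listed in the deposited count tables, and all 8 were found. The data are single-cell RNA-seq of cells dissociated from injured tibialis anterior muscle, with 1 library from WT mice and 1 from the conditional Setdb1 knockout (Setdb1-cKO, written KO below). Setdb1 encodes a histone methyltransferase that places the repressive trimethyl mark on lysine 9 of histone H3, and by its title the series asks about the role of SETDB1 in the stem cells of regenerating muscle. Mice of both groups were 8 to 12 weeks old, dissociation used collagenase II followed by collagenase II with dispase, and cells were sorted after staining with Hoechst and propidium iodide. The protocol text also mentions hindlimb muscles of both legs. How many animals entered a library, how and when the muscle was injured, and which Cre acts on the conditional allele are facts not given in the sources used here.

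When muscle regenerates, Pax7-positive stem cells (satellite cells) divide as myoblasts, leave the cell cycle and fuse with each other or with existing fibres. Fusion has an adhesion step, in which cadherins, immunoglobulin-like receptors and integrins hold membranes together, and a membrane-merging step that needs the muscle-specific proteins myomaker (Mymk) and myomixer (Mymx). Ferlins such as myoferlin (Myof) and dysferlin (Dysf) are calcium-binding membrane proteins of vesicle fusion and membrane repair, and the first is known from myoblasts and the second from mature fibres.

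The genes lie on 7 chromosomes of GRCm38. Mymk spans chr2:27061636-27072179 on the minus strand, Mymx chr17:45600971-45602102 on the minus strand, Cdh15 chr8:122847966-122867397 on the plus strand and Cdon chr9:35421128-35507652 on the plus strand. Myof spans chr19:37899036-38043577 on the minus strand, Dysf chr6:84008590-84211060 on the plus strand, Ncam1 chr9:49502136-49798925 on the minus strand and Itga7 chr10:128933818-128958282 on the plus strand. Genes on the opposite strand that share exon bases with a member had at most 6 UMIs (unique molecular identifiers, each standing for 1 captured RNA molecule) in either library. RefSeq promoter windows, running from 250 bases before to 50 after a transcription start in GRCm38.p6, were matched for 4 members. Those of Cdh15 and Myof are shown because Cdh15 counts lay almost wholly in myogenic cells and Myof counts in nearly every class. Capitals mark each CANNTG, the E-box letters that MyoD-family factors can bind (N is any base, so both strands are covered at once). The Cdh15 window is chr8:122848124-122848423 on the plus strand, inside the annotated gene span, and the Myof window is chr19:38043528-38043827 on the minus strand.
Cdh15: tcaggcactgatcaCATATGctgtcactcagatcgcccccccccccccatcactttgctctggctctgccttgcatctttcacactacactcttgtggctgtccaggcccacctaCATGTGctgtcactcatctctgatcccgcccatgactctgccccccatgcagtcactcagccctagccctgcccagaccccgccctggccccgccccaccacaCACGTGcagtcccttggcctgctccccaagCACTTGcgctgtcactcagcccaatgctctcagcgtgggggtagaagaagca
Myof: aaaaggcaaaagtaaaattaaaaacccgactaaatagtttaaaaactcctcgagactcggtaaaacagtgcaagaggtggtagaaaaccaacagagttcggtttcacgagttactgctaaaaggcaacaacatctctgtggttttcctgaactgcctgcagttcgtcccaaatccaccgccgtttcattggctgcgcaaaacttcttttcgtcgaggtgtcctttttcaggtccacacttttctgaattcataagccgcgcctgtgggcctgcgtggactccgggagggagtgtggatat
The Cdh15 window held 4 CANNTG and the Myof window 0. Of the other matched members, the Cdon window held 0 and the Dysf windows 0 and 1. Cdon had 69.1% of its WT and 51.5% of its KO UMIs in myogenic cells, and Dysf 3.31% and 5.16%. CANNTG occurs in 72.3% of the 32851 promoter windows of the same length, so its presence is common, and a match describes letters only. The narrower forms CAGCTG (16.3% of all windows) and CACCTG or its reverse complement CAGGTG (20.2%) were in none of the members' windows.

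Total depth was 121703522 UMIs for WT and 138667420 for KO. Of the barcodes, 6732 WT and 6799 KO had 5000 or more UMIs, and 9 barcode sequences were common to both libraries. After filters and removal of likely doublets 6345 WT and 6411 KO cells remained. Clusters named from marker lists gave 680 WT and 381 KO myogenic-like cells, with median depths of 17379.5 and 20916 UMIs, beside mononuclear phagocyte-like, dendritic-like, fibro-adipogenic or fibroblast-like, tenocyte-like, endothelial-like and mural-like cells. Clustering used none of the 8 genes. The largest cluster (661 WT and 834 KO cells) had 15 of 16 phagocyte markers raised but took no name, since genes of another list were among its leading genes, and 2 smaller clusters (19 and 207, 50 and 21 cells) took none either. Sub-clusters of the myogenic-like cells gave a stem state (464 WT and 109 KO cells, high in genes such as Pax7), a cycling state (144 and 151) and a differentiating state (44 and 75, led by Mybph, Actc1 and Myh3). The differentiating state falls short of the 50 cells per library asked of other classes and is kept because the genes turn on it. The other 28 WT and 46 KO cells were in 2 sub-clusters that took no state, led by fibroblast or phagocyte genes. Setdb1 stood at 18.1 CPM in WT and 8.54 CPM in KO myogenic-like cells (CPM, a gene's UMIs scaled to counts per 1000000 UMIs of the summed cells). Since the deleted exons are unknown here, UMIs from the 3-prime end need not report the deletion. Replicates are lacking, with 1 library per group, so every difference below is one between 2 libraries and the bracketed 95% intervals cover counting error only.

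Mymk, the multipass membrane protein that starts the mixing of myoblast membranes, and Mymx, the microprotein that completes the fusion pore, were the most state-restricted of the 8 genes. In the differentiating state Mymk stood at 1057 CPM [998.2 to 1119] in WT and 707.5 CPM [671.7 to 744.7] in KO cells. In the cycling state it stood at 24.6 CPM [19.8 to 30.2] and 22.5 CPM [18.2 to 27.5], and in the stem state at 8.34 CPM [6.46 to 10.6] and 8.40 CPM [4.80 to 13.6]. The order differentiating, cycling, stem therefore held in both libraries without overlap of intervals. Within a library the differentiating level was 126.8 times the stem level in WT [99.1 to 164.7] and 84.2 times in KO cells [51.7 to 147.8].

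The differentiating state had 865.3 CPM [811.9 to 921.3] of Mymx in WT cells and 582.9 CPM [550.5 to 616.7] in KO cells. In the cycling state it was 10.8 CPM [7.72 to 14.7] in WT and 18.5 CPM [14.6 to 23.0] in KO cells. In the stem state it was 3.49 CPM [2.32 to 5.04], from 28 UMIs, in WT and 15.8 CPM [10.6 to 22.5], from 30 UMIs, in KO cells. In the WT library the 3 states had separate intervals, and in the KO library those of the stem and cycling states overlapped. Of the 78 KO cycling-state UMIs of Mymx, 41 came from 1 cell, while no WT cycling-state cell held more than 6 of 40. The share of cycling-state cells with a Mymx UMI was 12.5% in WT and 16.6% in KO, and 5.56% and 3.31% with cells thinned to 5000 UMIs. The differentiating level was 248.3 times the stem level in WT [170.7 to 375.6] and 37.0 times in KO cells [25.8 to 55.1], a gap that rests on those few stem-state UMIs. One KO stem-state cell reached 658.2 CPM of Mymx, and the highest WT stem-state cell 202.9 CPM. No stem-state cell of either library held more than 6 Mymx UMIs, so these 2 values also reflect the depth of the cells.

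**Figure D1:**
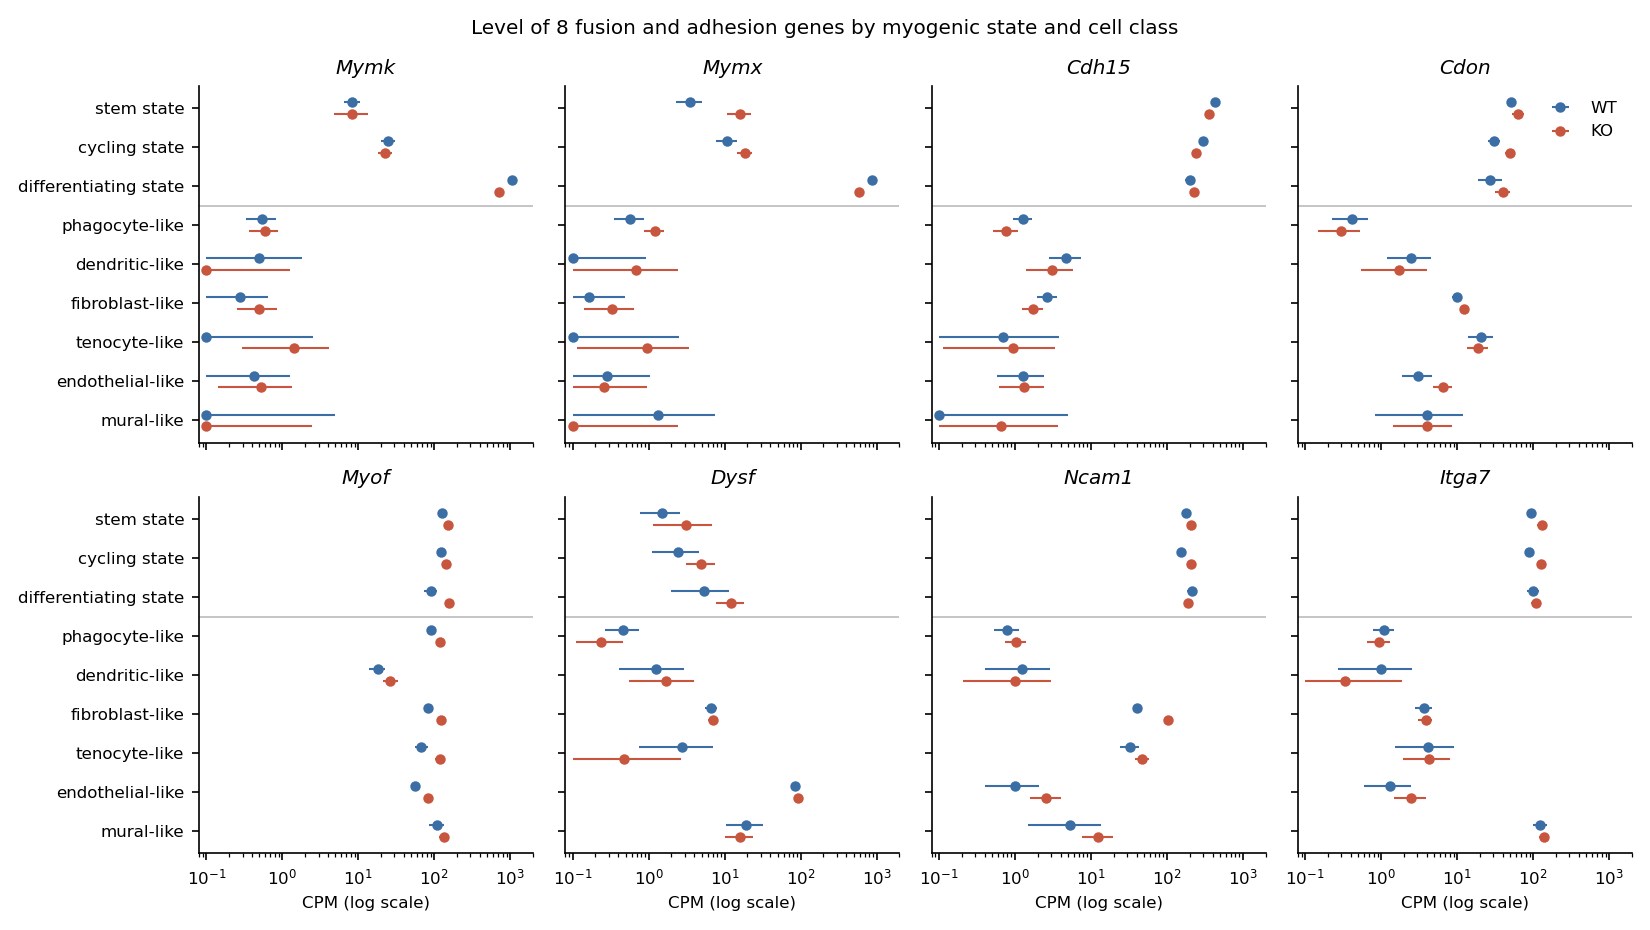
Level of each gene in CPM (log axis) in the 3 myogenic states, above the grey line, and in 6 other cell classes, in the WT (blue) and KO (red) libraries; bars are 95% Poisson intervals and a level or bound under 0.1 CPM is drawn at 0.1. Mymk and Mymx peak in the differentiating state (1057 and 865.3 CPM in WT cells), Dysf in endothelial-like cells (83.4 CPM), and Myof is spread over all classes.

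Taken over all myogenic-like cells, both fusogens were higher in the KO library. Mymk stood at 102.7 CPM in WT and 183.6 CPM in KO cells, a KO/WT ratio of 1.79 [1.66 to 1.92], and Mymx at 80.2 and 158.6 CPM, a ratio of 1.98 [1.83 to 2.14]. Within the differentiating state, whose 44 WT and 75 KO cells were the source of 87.1% of Mymk UMIs of WT and 89.6% of KO myogenic-like cells, the direction was the other way. There the ratio was 0.669 [0.620 to 0.723] for Mymk and 0.674 [0.619 to 0.734] for Mymx, both just inside the 1.5-fold limit used for counts below. Myog, the transcription factor that marks differentiation, stood at 4396 and 2791 CPM in the same cells, a ratio of 0.635 [0.611 to 0.660]. The ratios of both genes over the class and in the differentiating state thus lay on opposite sides of 1. The latter depended on how states were assigned: with the state of each cell taken from its own markers the log2 ratio in the differentiating state was 0.05 for Mymk and 0.15 for Mymx. In the stem and cycling states Myog stood at 27.6 and 88.3 CPM in WT and 90.3 and 128.5 CPM in KO cells, ratios of 3.27 [2.66 to 4.01] and 1.46 [1.27 to 1.67]. Its direction in those states was that of Mymx (4.52 [2.61 to 7.85] and 1.71 [1.15 to 2.57]), while Mymk had ratios of 1.01 [0.545 to 1.76] and 0.915 [0.679 to 1.23]. The cycling ratio of Mymx rests largely on 1 KO cell, which held 41 of the 78 KO UMIs. That of Mymk rests partly on 1 KO cell with 40 of the 95 KO UMIs.

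The differentiating state made up 6.47% [4.74 to 8.59] of WT and 19.7% [15.8 to 24.0] of KO myogenic-like cells. The stem state made up 68.2% [64.6 to 71.7] and 28.6% [24.1 to 33.4], and the cycling state 21.2% [18.2 to 24.4] and 39.6% [34.7 to 44.7]. These shares are set by the sort, by the minimum of 5000 UMIs and by state markers whose own levels differed between the libraries. With a minimum of 2000 UMIs, a cluster led by Cck and Myog held 27 WT and 308 KO cells at a median of 3308 UMIs. It was named muscle fibre-like, so it is in none of these shares. State size in the weighting is a state's share of the UMIs of the 3 states, so it differs from the shares of cells above. With each library's state levels weighted by its own state sizes, Mymk came to 105.1 CPM in WT and 192.1 CPM in KO cells, a ratio of 1.83. With KO state levels weighted by WT state sizes it came to 73.9 CPM (0.702 of the WT value), and with WT state levels weighted by KO state sizes to 281.5 CPM (2.68 times). For Mymx the matching ratios were 1.97, 0.816 and 2.77. With the clustered states, weighting by 1 set of state sizes thus placed the KO level of both genes below WT. The weighting used this state assignment alone, and the differentiating ratios turned with per-cell states, as given above. The part of state sizes in the class ratios was not tested.

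**Figure D2:**
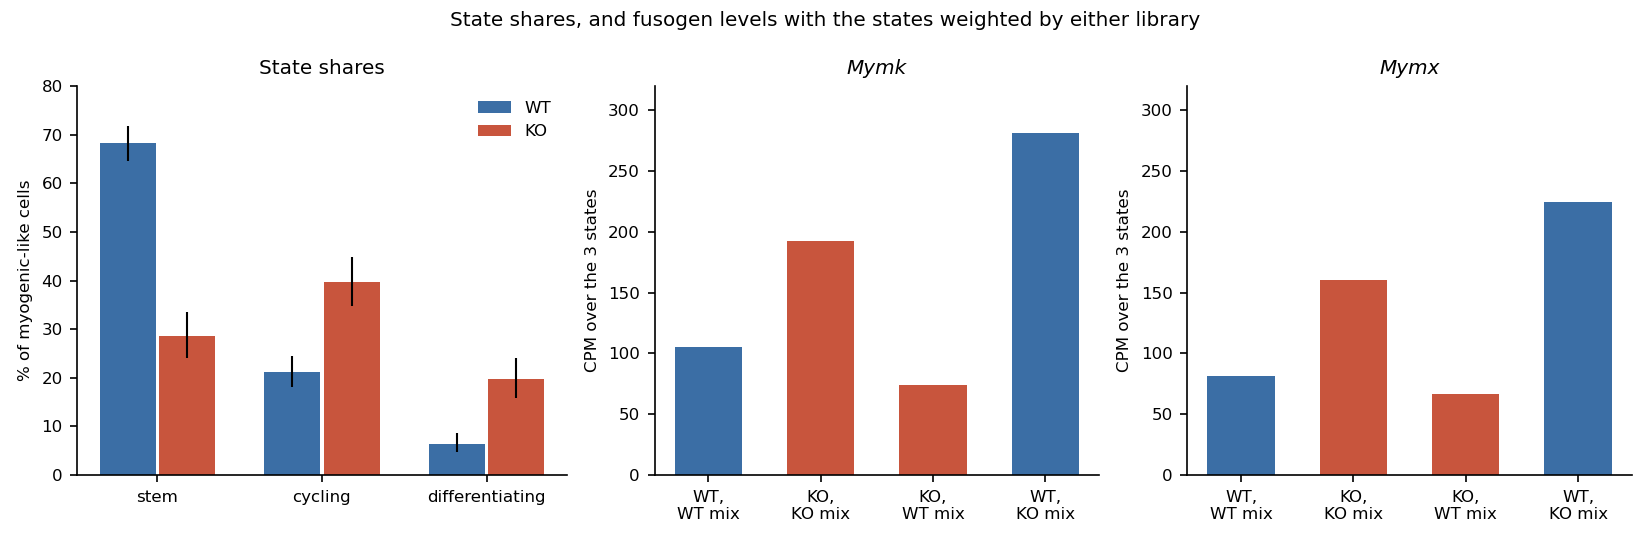
Left, share of myogenic-like cells in each state with 95% binomial intervals. Middle and right, Mymk and Mymx in CPM over the 3 states. There each library's levels are weighted by its own or the other library's state sizes, taken as shares of UMIs and not of cells. The KO bar of Mymk stands at 192.1 CPM with its own state sizes and at 73.9 CPM with those of the WT library, against 105.1 CPM in WT.

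Single cells of the differentiating state usually held both fusogens. Of 44 WT cells 38 (86.4% [72.7 to 94.8]) had UMIs of both genes, as had 55 of 75 KO cells (73.3% [61.9 to 82.9]). With every cell thinned to 5000 UMIs the shares were 77.3% [62.2 to 88.5] and 52.0% [40.2 to 63.7], so the KO share was lower at matched depth and the intervals touched. In the stem state 2 WT and 2 KO cells had both. The median cell of the differentiating state stood at 715.3 CPM of Mymk and 659.1 CPM of Mymx in the WT library and at 390.0 and 410.4 CPM in the KO library, while the highest cells were alike (3201 and 3245 CPM of Mymk). The lower KO sum thus went with a lower median, and the top 10% of cells (5 WT and 8 KO) held 51.6% and 46.6% of the state's Mymk UMIs.

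**Figure D3:**
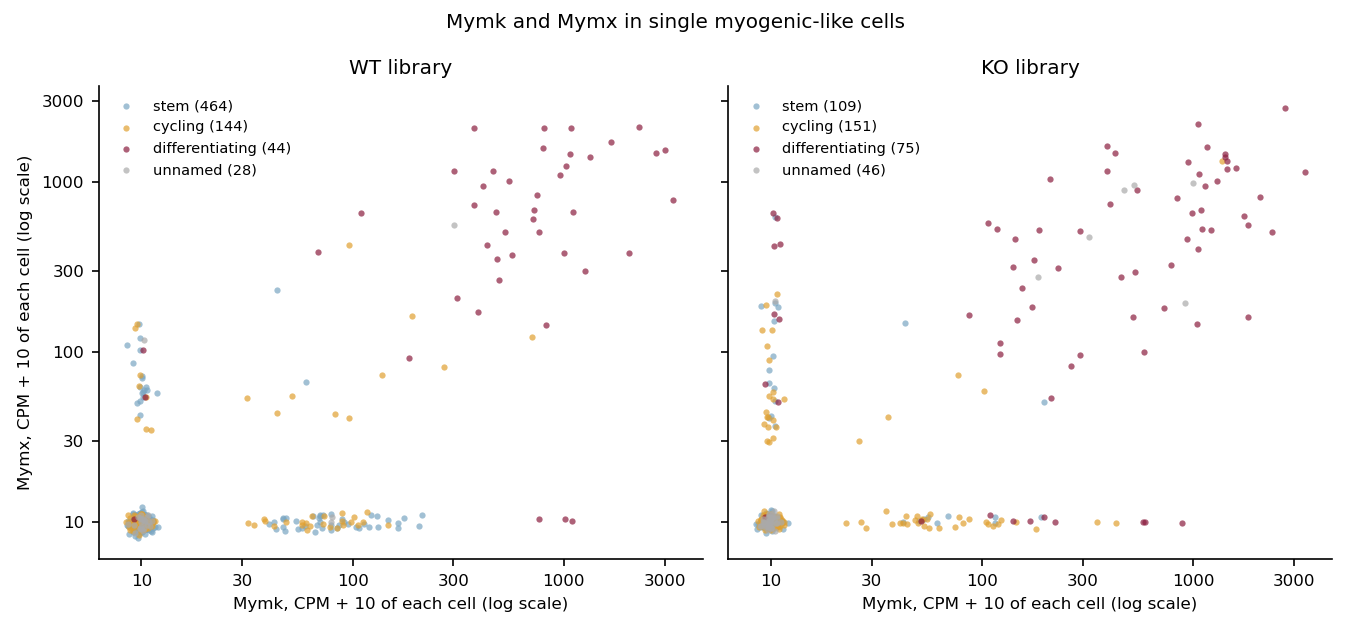
Mymk (x) and Mymx (y) of each myogenic-like cell as CPM + 10 on log axes, with slight jitter, coloured by state, in the WT (left) and KO (right) library; numbers in the legend are cells. Cells without a UMI of a gene lie at 10; 38 of 44 WT and 55 of 75 KO cells of the differentiating state have UMIs of both genes and lie in the upper right field.

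Outside the myogenic cells both genes were traces, apart from a few UMIs in muscle fibre-like cells. These cells, 27 WT and 39 KO, had 13.9 CPM of Mymk from 5 UMIs in WT and 1.75 CPM from 1 UMI in KO, and 5.54 and 5.25 CPM of Mymx from 2 and 3 UMIs. Of the Mymk UMIs of all cells, 97.1% in WT and 95.1% in KO lay in myogenic-like cells, and 96.8% and 94.3% of those of Mymx. With cells thinned to 5000 UMIs, 9.12% of WT and 19.7% of KO myogenic-like cells had a Mymk UMI, and 0.211% and 0.210% of phagocyte-like cells, whose median depths were 11557.5 and 12085 UMIs. For Mymx the shares were 8.09% and 17.6%, against 0.316% and 0.560%. Without thinning, the myogenic-like shares were 18.1% and 31.0% for Mymk and 11.8% and 28.9% for Mymx, and those of phagocyte-like cells at most 1.44%. The highest level of either gene in the 6 other classes with 50 cells in each library was 1.42 CPM, in KO tenocyte-like cells, from 3 UMIs.

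Cdh15 encodes M-cadherin, the calcium-dependent adhesion molecule of satellite cells and myoblasts. Its order of states was the reverse of that of the fusogens. In WT cells it stood at 424.8 CPM [410.7 to 439.3] in the stem, 300.8 CPM [283.4 to 319.0] in the cycling and 200 CPM [174.7 to 227.8] in the differentiating state, with no overlap of intervals. In KO cells the levels were 353.8 CPM [327.6 to 381.6], 238.5 CPM [224.0 to 253.7] and 228.4 CPM [208.3 to 250], and the last 2 overlapped. The KO/WT ratio was 0.833 [0.766 to 0.905] in the stem, 0.793 [0.727 to 0.864] in the cycling and 1.14 [0.973 to 1.35] in the differentiating state. The KO level was thus lower in the first 2 states, by less than 1.5-fold, and the interval held 1 in the third.

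Over all myogenic-like cells Cdh15 stood at 366.1 CPM in WT and 259.5 CPM in KO cells, a ratio of 0.709 [0.675 to 0.745]. At the state sizes of the WT library, with the clustered states alone, the ratio was 0.838. The part of state sizes in the lower Cdh15 level was not tested. The share of cells with a Cdh15 UMI at 5000 UMIs was 79.1% in WT and 65.4% in KO myogenic-like cells, against 0.492% and 0.315% of phagocyte-like cells. Without thinning the myogenic-like shares were 96.5% and 93.2%. No other class with 50 cells in each library exceeded 4.74 CPM of Cdh15, the WT dendritic-like value from 19 UMIs.

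Cdon is an immunoglobulin-superfamily receptor that binds cadherins at myoblast contacts and also acts as a Hedgehog co-receptor. It was highest in the stem state, at 51.3 CPM [46.5 to 56.5] in WT and 63.5 CPM [52.7 to 75.9] in KO cells. The cycling state stood at 30.8 CPM [25.4 to 37.0] and 49.0 CPM [42.5 to 56.1], a ratio of 1.59 [1.26 to 2.02], and the differentiating state at 27.4 and 40.1 CPM, a ratio of 1.46 [0.957 to 2.29]. In the stem state the ratio was 1.24 [1.003 to 1.52]. The KO level was thus higher in all 3 states, and the differentiating interval held 1. Over all myogenic-like cells the ratio was 1.14 [1.01 to 1.30], and it was 1.32 at WT state sizes. Outside them, tenocyte-like cells had 20.8 CPM in WT and 18.9 CPM in KO cells, fibroblast-like cells 9.94 and 12.3 CPM and endothelial-like cells 3.01 and 6.52 CPM. Dendritic-like, mural-like and phagocyte-like cells stayed at or under 4.05 CPM.

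Ncam1, the neural cell adhesion molecule found on myoblasts, newly formed myotubes and denervated fibres, differed by less than 1.5-fold among the myogenic states of a library. The WT levels were 177.0 CPM [167.9 to 186.5] in the stem, 154.4 CPM [142.0 to 167.6] in the cycling and 212.3 CPM [186.3 to 241.0] in the differentiating state. The KO levels were 209.5 CPM [189.4 to 231.1], 207.0 CPM [193.5 to 221.2] and 190.8 CPM [172.4 to 210.5], with all intervals overlapping. The KO/WT ratio was 1.18 [1.06 to 1.32] in the stem, 1.34 [1.21 to 1.49] in the cycling and 0.898 [0.763 to 1.06] in the differentiating state.

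The wider difference in Ncam1 lay outside the muscle lineage. In fibro-adipogenic or fibroblast-like cells, the resident mesenchymal cells that support regeneration, Ncam1 stood at 40.8 CPM [37.9 to 43.8] in 766 WT cells and at 102.5 CPM [98.6 to 106.7] in 836 KO cells, a ratio of 2.52 [2.32 to 2.74]. The WT and KO cells of this class were spread differently over its clusters, and all clusters held cells of both libraries. At a class resolution of 2, a cluster led by Penk and Cxcl14 (437 WT and 177 KO cells) had 30.2 and 68.3 CPM, a ratio of 2.26 [1.93 to 2.66], and a cluster led by Tnc, Lrrc15 and Cthrc1 (195 and 398 cells) had 50.3 and 107.8 CPM, a ratio of 2.14 [1.86 to 2.47]. A cycling cluster (63 and 198 cells) had 86.8 and 132.4 CPM, a ratio of 1.53 [1.30 to 1.80]. The KO value was thus higher within each of these 3 clusters. The other 2 were small, with ratios of 2.85 [1.34 to 6.73] from 9 and 35 UMIs and 1.45 [0.224 to 7.43] from 5 and 3 UMIs. Of the Ncam1 UMIs of all cells, 23.1% in WT and 53.6% in KO lay in these cells, and 72.5% and 38.9% in myogenic-like cells. Tenocyte-like cells had 32.5 and 47.3 CPM of Ncam1, mural-like cells 5.39 and 12.5 CPM, and the dendritic-like, phagocyte-like and endothelial-like classes at most 2.61 CPM.

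Itga7 encodes the integrin chain that, paired with beta 1, ties muscle cells to laminin. Among classes with 50 cells in each library its highest level was in mural-like cells, at 124.1 CPM [100 to 152.2] in WT and 137.1 CPM [119.1 to 157.1] in KO cells. This class of vessel wall cells was led by Myh11, Pln and Lmod1. A cluster led by Kcnj8, Rgs5 and Abcc9 (50 WT and 21 KO cells) took no name and is not in it. The myogenic states came next among classes with 50 cells in each library. WT cells had 92.7 CPM [86.2 to 99.6] in the stem, 88.3 CPM [79.0 to 98.4] in the cycling and 99.98 CPM [82.4 to 120.2] in the differentiating state, with overlapping intervals. KO cells had 129.7 CPM [114.0 to 146.9], 126.3 CPM [115.8 to 137.5] and 108.7 CPM [94.9 to 123.8]. The ratio was 1.40 [1.21 to 1.62] in the stem, 1.43 [1.25 to 1.65] in the cycling and 1.09 [0.863 to 1.38] in the differentiating state, so the KO level was higher in the first 2 by less than 1.5-fold. In the remaining classes with 50 cells in each library Itga7 was at most 4.26 CPM. Schwann or glial-like cells, 32 WT and 31 KO, had 118.5 and 101.4 CPM of Itga7 from 38 and 29 UMIs, a WT value above all WT myogenic states, and 99.8 and 115.4 CPM of Ncam1 from 32 and 33 UMIs.

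Myof was the member found in nearly every cell class. Only 20.6% of its WT and 11.8% of its KO UMIs lay in myogenic-like cells, and phagocyte-like cells held 43.1% and 41.4%. The largest cluster, which took no name, held a further 566 and 751 Myof UMIs, at 75.9 and 79.7 CPM (ratio 1.05 [0.941 to 1.17]). WT levels ran from 18.0 CPM in dendritic-like cells to 124.7 CPM [117.1 to 132.7] in the stem state, with 122.9 CPM in the cycling and 89.4 CPM [72.8 to 108.6] in the differentiating state. In KO cells the 3 states stood at 153.8, 141.7 and 156.0 CPM with overlapping intervals. The differentiating ratio was 1.75 [1.39 to 2.21], and those of the stem and cycling states were 1.23 [1.08 to 1.41] and 1.15 [1.02 to 1.31]. The stem direction turned in 4 alternatives, with log2 ratios of -0.31 and -0.30 at minimums of 2000 and 8000 UMIs, -0.34 with no doublets removed and -0.02 with per-cell states.

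The KO level of Myof was above WT in every class with 50 cells in each library. Phagocyte-like cells had 90.9 CPM in WT and 119.6 CPM in KO cells (ratio 1.32 [1.26 to 1.38]), and fibroblast-like cells 83.2 and 121.9 CPM (1.47 [1.38 to 1.56]). Endothelial-like cells had 55.3 and 81.9 CPM (1.48 [1.30 to 1.69]), tenocyte-like cells 67.8 and 117.8 CPM (1.74 [1.37 to 2.22]), dendritic-like cells 18.0 and 26.4 CPM (1.47 [1.05 to 2.06]) and mural-like cells 107.9 and 133.8 CPM (1.24 [0.953 to 1.63]). The mural interval held 1. Whether the higher KO Myof belongs to the genotype or to the library cannot be told apart with 1 library each.

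Dysf lay mainly in vessel cells. Endothelial-like cells held 71.2% of its WT and 68.6% of its KO UMIs, at 83.4 CPM [76.8 to 90.5] and 93.6 CPM [86.9 to 100.7], a ratio of 1.12 [1.005 to 1.25]. Mural-like cells had 18.9 and 15.8 CPM and fibroblast-like cells 6.72 and 7.01 CPM. In myogenic-like cells Dysf was sparse, at 2.02 CPM [1.33 to 2.94] from 27 WT UMIs and 6.07 CPM [4.56 to 7.91] from 54 KO UMIs, a ratio of 3.00 [1.86 to 4.95]. By state it stood at 1.49 and 3.15 CPM (12 and 6 UMIs) in the stem, 2.43 and 4.97 CPM (9 and 21 UMIs) in the cycling and 5.31 and 12.1 CPM (6 and 25 UMIs) in the differentiating state. Each of these 3 ratios has an interval that holds 1. At WT state sizes the myogenic ratio was 2.12.

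**Figure D4:**
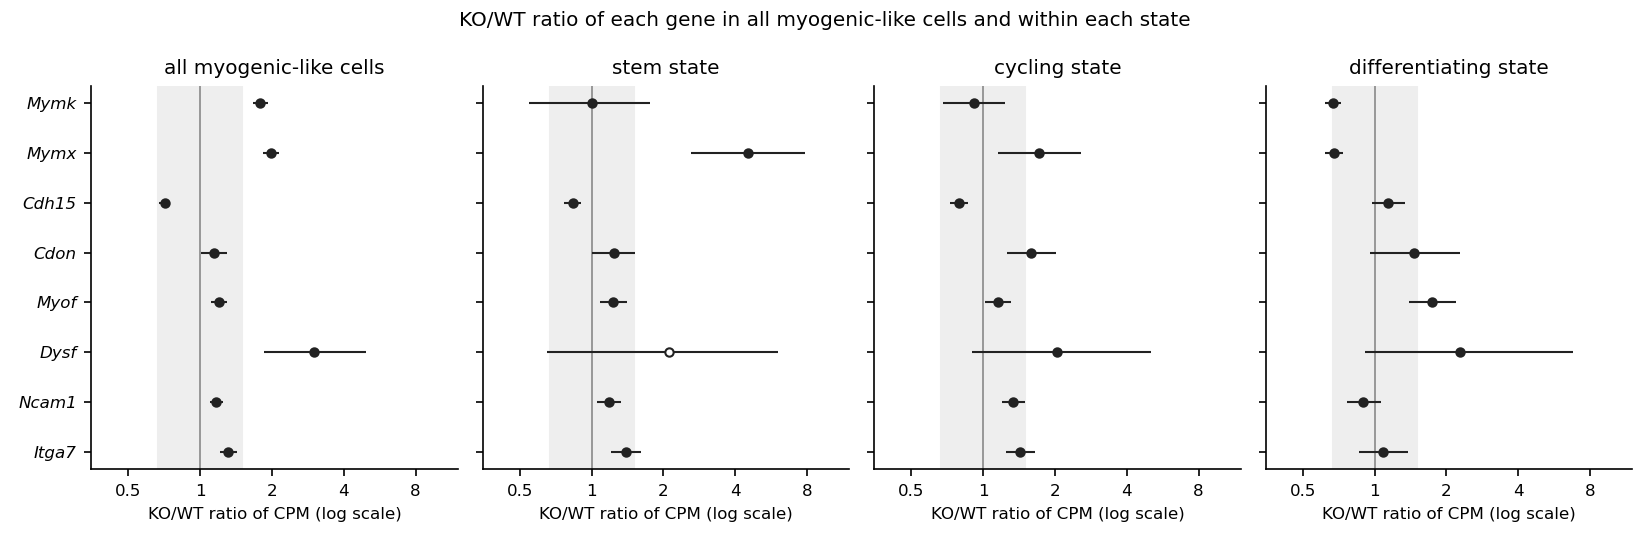
KO/WT ratio of CPM (log axis) of each gene in all myogenic-like cells and in each state, with 95% counting intervals; the grey band spans ratios within 1.5-fold, and the open point has under 20 UMIs in both libraries together. Mymk and Mymx lie right of the band over all myogenic-like cells (1.79 and 1.98) and at its left edge in the differentiating state (0.669 and 0.674).

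Counted at a limit of 1.5-fold, among genes with at least 20 UMIs in both libraries together, 3 of the 8 members (Mymk, Mymx and Dysf) were higher in KO myogenic-like cells and 0 were lower. Of all 13566 genes so measured there, 11.2% were higher and 12.4% lower. In the stem state 1 of 7 (Mymx) was higher and 0 lower, against 13.2% and 10.6% of all genes, a count near the background. In the cycling state 3 of 8 (Mymx, Cdon and Dysf) were higher and 0 lower, against 8.31% and 10.6%. Mymx counts there largely through 1 KO cell with 41 of the 78 KO UMIs. In the differentiating state 2 of 8 (Myof and Dysf) were higher and 0 lower, against 13.1% and 11.2%. A member near the limit can cross it within its interval, as Mymk, Mymx, Cdon, Myof and Dysf could there.

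In phagocyte-like cells 1 of 8 members was higher (Mymx, against 8.04% of all genes) and 2 were lower (Cdh15 and Dysf, against 5.1%). All 3 of these stood at 1.28 CPM or less, and KO Dysf (0.240 CPM) was under 2 times the 0.145 CPM that free RNA could give. In fibroblast-like cells 1 of 6 was higher (Ncam1, against 10.7%) and 1 lower (Cdh15 at 2.67 and 1.73 CPM, against 10.3%). In endothelial-like cells 3 of 5 were higher (Cdon, Ncam1 and Itga7, against 8.56%) and 0 lower (against 3.95%). The endothelial 3 all stood at 6.52 CPM or less, so these counts outside the muscle lineage, apart from Ncam1 in fibroblast-like cells, rest on traces.

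Summed markers of other classes and of muscle fibre also differed between the libraries. In the summed myogenic-like cells the 16 phagocyte markers came to 1150 CPM in WT and 1874 CPM in KO cells, with 0 of them at 0 in either. The 10 muscle fibre markers came to 1385 and 2866 CPM, the 6 erythroid markers to 44.6 and 815.9 CPM and the 12 fibroblast markers to 840.5 and 722.0 CPM. Acta1 and Mylpf, among the fibre markers, are also markers of the differentiating state. Within the differentiating state the phagocyte markers stood at 623.8 and 778.0 CPM and the fibre markers at 12760 and 10830 CPM. In the stem state the fibre markers stood at 302.7 and 259.3 CPM, below the differentiating state in both libraries. Within the cycling state the erythroid markers stood at 40.5 and 1689 CPM. Their part in the member ratios was not tested. The fusogens themselves were at most 1.20 CPM in phagocyte-like cells.

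Of 92 further genes of fusion and adhesion in 4 lists, 79 had at least 20 UMIs in myogenic-like cells. Of these, 14 were at least 1.5-fold higher and 5 lower in the KO library, beside the 11.2% and 12.4% of all genes given above, with a median log2 ratio of 0.17 beside 0.03 over all genes. Among 18 other adhesion genes 3 were higher and 1 lower (median 0.05), beside 11.2% and 12.4% of all genes. Vcam1, the adhesion receptor on satellite cells that binds integrin alpha 4, stood at 313.4 CPM in WT and 196.1 CPM in KO cells (ratio 0.626 [0.591 to 0.662]). Cd82, a tetraspanin of the satellite cell surface, stood at 166.1 and 256.1 CPM (1.54 [1.45 to 1.64]). The other higher genes of this list, named like those of the next lists after their values were seen, were Jam2 (8.01 and 12.1 CPM) and Alcam (0.599 and 2.58 CPM). The direction of Vcam1 matched that of Cdh15, and the direction of Cd82 that of most members.

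Among 21 integrins and their cytoplasmic anchors 5 were higher and 2 lower (median 0.23), beside 11.2% and 12.4% of all genes, all 7 under 50 CPM. Adam12, a disintegrin metalloprotease of myoblasts, stood at 5.39 and 11.8 CPM (2.19 [1.61 to 3.00]), and Itga4, Itga6, Itga8 and Itgb1bp2 were higher at 6.63 CPM or less. The lower ones were the integrin chains Itgb5 (24.19 and 15.95 CPM) and Itga1 (5.99 and 3.93 CPM). Among 21 actin remodelling genes, which drive the protrusions of fusing myoblasts, 2 were higher, Diaph3 (21.9 and 34.5 CPM) and Elmo1 (1.57 and 3.93 CPM), and 0 lower (median 0.19), beside 11.2% and 12.4% of all genes, and 20 had a ratio over 1. Among 19 ferlin relatives and membrane repair genes 4 were higher and 2 lower (median 0.15), beside the same 11.2% and 12.4%, and the count lower is near that background. Cav3, the caveolin of muscle, was among the higher (27.6 and 44.5 CPM), and the lower ones were Ano5 (33.9 and 19.5 CPM) and Ehd2 (45.9 and 30.3 CPM). Bin1, the membrane-curving protein of T-tubules, stood at 204.3 and 357.9 CPM (1.75 [1.66 to 1.84]), Cavin4, a muscle caveolar coat protein, at 67.9 and 117.0 CPM (1.72 [1.58 to 1.89]) and the endocytic recycling ATPase Ehd4 at 72.0 and 110.6 CPM (1.54 [1.40 to 1.68]). These lists describe the same 2 libraries, and the part of the state sizes given above in their ratios was not tested.

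**Figure D5:**
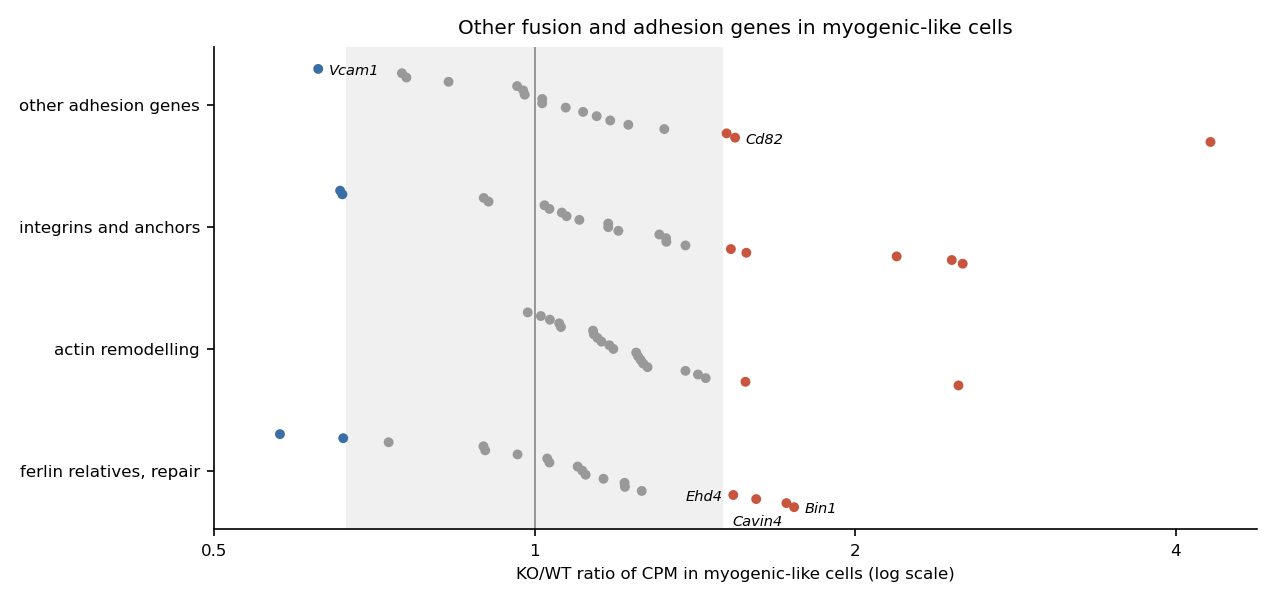
KO/WT ratio of CPM in myogenic-like cells (log axis) for the 79 other fusion and adhesion genes with at least 20 UMIs, by list; grey points lie within 1.5-fold (grey band), red points are higher and blue points lower in the KO library. The labelled genes had at least 50 CPM in 1 library, with Vcam1 (0.626) on the low side and Bin1 (1.75) the highest of the labelled ratios.

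Likeness of pattern was measured as Pearson's r of log2(CPM + 5) over 18 profiles, 9 classes or states in each library, for 5733 genes. These profiles share libraries and depth, so r describes them and carries no test. Mymk was most like Mymx, the pancreatic-type protease gene Ctrb1 (both r = 0.990) and the fast troponin C gene Tnnc2 (0.989). Mymx was most like the cardiac and slow troponin C gene Tnnc1 (0.992), Mymk and Tnnc2. Outside the differentiating state Mymk was at most 24.6 CPM and Mymx at most 18.5 CPM. Their r therefore turns largely on the differentiating profiles, of which that of WT has 44 cells. Cdh15 was most like Mybpc1 (0.994), Drp2 (0.992) and Vgll2 (0.991). Cdon was most like Rps2 (0.962), Xrcc5 (0.961) and Sox11 (0.956). Among the genes most like Ncam1 were Xrcc5 (0.964) and the filamin gene Flnc (0.961). Itga7 was most like Smarcd3 (0.976), the desmin gene Des (0.969) and Jph2 (0.950). Dysf was most like Mrtfb (0.950), Spns2 (0.939) and Mgll (0.938), and Myof was most like Gde1 (0.913), Kif3a (0.899) and Fech (0.870). Between members, r ran from -0.254 for Dysf with Ncam1 to 0.990 for Mymk with Mymx. It was 0.943 for Cdon with Ncam1, 0.842 for Cdh15 with Cdon and -0.04 for Mymk with Dysf.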

How the data were processed

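The matrices as deposited list UMI counts, whole numbers that the authors had neither normalized nor filtered for cells, as their values show. Per the submitters' processing notes, the genome build was GRCm38 and the tools were Seurat 4.0.1, STAR 2.7.8a and STARsolo 2.7.9a. Counting settings and strand were not given in the sources used here. Cells needed 5000 UMIs, 300 genes and at most 10% mitochondrial UMIs. Scrublet's own threshold called 0 doublets, so barcodes with the highest scores were left out at 0.8% per 1000 (360 WT and 368 KO). Counts were scaled to 10000 per cell, log-transformed and clustered without integration (scanpy 1.11.5, leidenalg 0.10.2, 2000 variable genes, 30 components, 15 neighbours, resolution 1 for classes and 0.3 for states), leaving out the 8 genes and the 4 lists.

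A cluster took the class with most of its markers higher than elsewhere, needing 3 markers and no other class leading its top 10 genes. Such names end in "like". Fibre genes did not compete with the myogenic list. A cluster best matched to fibre markers was named myogenic if a myogenic marker led it and at least as many myogenic markers were raised as not. State names disregarded leading genes of the myogenic, fibre and erythroid lists. A cycling sub-cluster with Hbb-bs among its leading genes thus kept its name. Sums of UMIs by class and library were expressed as CPM, with exact Poisson intervals and Clopper-Pearson intervals for shares. Ratios have conditional binomial intervals (scipy 1.17.1), tested on simulated data. Those data were Poisson sums without spread between cells, so the test cannot speak for UMIs clumped in a few cells. No p-values exist with 1 library per group. Named list genes are up to 4 per list past 1.5-fold with 50 CPM in 1 library, ranked by the interval bound nearest to 1. For each member the 3 most alike genes are named, except 1 that is not reported here. The members, lists and rules were chosen with earlier results of these data known, and the naming rule after the clusters were seen. Coordinates come from GENCODE M21, in which 55227 of 55487 identifiers were found, and promoters from RefSeq (GRCm38.p6). Other values of each choice, and TMM scaling with edgeR 4.0.16, were tried.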

Additional observations from a re-analysis of the deposited data

Results flagged for a closer look

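Mymx had KO/WT ratios on opposite sides of 1 in 2 myogenic states, with intervals that both leave out 1. The log2 ratio was 2.18 in the stem state and -0.57 in the differentiating state. The difference between the states was not tested, since each group has 1 library, and the stem value rests on 28 and 30 UMIs. It reversed with a minimum of 8000 UMIs per cell and with no doublets removed.

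Dysf passed 1.5-fold in opposite directions in 2 cell types. The log2 ratio was -0.95 in phagocyte-like cells, from 17 WT and 9 KO UMIs, and 1.19 in the differentiating state, from 6 and 25 UMIs. The KO phagocyte level, 0.240 CPM, was under 2 times the 0.145 CPM that free RNA could give. Both intervals hold 1, and this difference was not tested either.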

How the results depend on the processing

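The higher Mymk and Mymx of KO myogenic-like cells kept their direction in all 13 alternatives (log2 ratio 0.79 to 1.20 and 0.93 to 1.22), as did the lower Cdh15 (-0.55 to -0.47). There 3 members were higher in 12 alternatives and 2 with 100 UMIs in both sums, 0 were lower in any, and the median log2 ratio of the other genes ran from 0.13 to 0.19. With a minimum of 2000 UMIs, the cluster led by Cck and Myog (27 WT and 308 KO cells) was named muscle fibre-like and lay outside these ratios. Within states the assignment of cells mattered. The count of members higher in the KO stem state (1) was 2 with a minimum of 2000 UMIs or 1 UMI in each sum, 3 with a mitochondrial limit of 5%, class resolution of 2, the genes kept in the clustering or state resolution of 0.2 (added after seeing the data), and 0 with per-cell states or 100 UMIs in both sums. The count lower there (0) was 1 with a minimum of 8000 UMIs, with no doublets removed and with per-cell states. In the cycling state the count higher (3) was 1 with no doublets removed and with per-cell states. In the differentiating state it was 1 in place of 2 with 2000 UMIs, per-cell states or 100 UMIs in both sums. Mymx turned to lower in the stem state with 8000 UMIs (-0.34) and no doublets removed (-0.39), and in the cycling state with the 5% limit (-0.20) and per-cell states (-0.17). Mymk in the stem state ran from -3.05 to 1.20. In the differentiating state Mymk and Mymx were lower in 13 of 14 alternatives each, and 0.05 and 0.15 with per-cell states; the cause was not tested.

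No paired analysis was possible because each group has 1 library. Depth limits Dysf in the 3 states and Mymk (67 and 16 UMIs) and Mymx (28 and 30) in the stem state.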
